A study of Homo sapiens and Mus musculus with 56 samples.

Results

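RS4;11 cells treated with the DOT1L inhibitor EPZ004777 were compared directly with RS4;11 cells treated with the menin inhibitor MI-2-2, across all genes measured on Affymetrix arrays. The comparison rests on 6 of the 56 arrays of the study, 3 per compound, assigned by the sample titles. RS4;11 is an established human B-precursor leukaemia line with a KMT2A-AFF1 fusion gene, and each group is that 1 line. The EPZ004777 cells received 3 µM of that compound for 6 days, and the MI-2-2 cells (also written MI2-2 in the labels) received 10 µM for 6 days, so the doses of the compounds differ. A further 3 RS4;11 arrays came from cells given a combination of the compounds, at doses that the labels do not restate, and 2 arrays (replicates 2 and 3) came from cells given the solvent DMSO. The titles name the replicates as biological, and their number limits the precision of every value. Each value is the authors' log2 signal of a probe set, on which a difference of 1 is a 2-fold difference.

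KMT2A, a histone methyltransferase, is broken in these leukaemias and joined to partners such as AFF1. The fusion protein keeps the part that binds menin, an adaptor that helps hold it on chromatin, and its partner recruits elongation factors and DOT1L, the enzyme that methylates histone H3 on the body of transcribed genes. EPZ004777 competes with the methyl donor in DOT1L, and MI-2-2 occupies the pocket of menin that binds KMT2A. The compounds thus act on different proteins of the same machinery, which is known for holding HOXA genes and MEIS1 active in KMT2A-rearranged leukaemia.

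The arrays carried markers of the label's cell type. The 7 B-precursor markers measured, among them EBF1, VPREB1 and DNTT, had means of 11.1 to 12.9 with EPZ004777 and stood at percentiles 90.9 to 99.2 of the array. No T cell marker passed the filter on dim signals, a gene being kept where its probe set lay above percentile 40 on at least 2 of the 11 RS4;11 arrays. NKG7, which encodes a cytotoxic granule protein, was bright, with means of 10.3 with EPZ004777 and 10.3 with MI-2-2, while the NK cell markers GNLY and KLRD1 were dim. Of the monocyte and neutrophil precursor markers, CD14 and ELANE were dim, and CTSG, MPO, CSF1R and ITGAM differed between the compounds as given below. LYZ of monocytes, ITGA2B and GP9 of megakaryocytes and COL1A1 of fibroblasts passed the filter. Their means with EPZ004777 were 7.58, 6.89, 6.35 and 6.25, and they stood at percentiles 41.3 to 76.1. HBB of erythroid cells, PF4 of megakaryocytes, AZU1 of neutrophil precursors and KRT8 and KRT18 of epithelial cells passed it at lower signals. These had means of 4.77 to 5.60 with EPZ004777 and stood at percentiles 33.3 to 52.5. In a bulk sample, fewer cells of a type and less RNA per cell cannot be told apart. Replicates correlated across the genes kept by the filter with r of 0.9962 to 0.9977 for EPZ004777 and 0.9962 to 0.9978 for MI-2-2, and arrays of different compounds with r of 0.9899 to 0.9921. The actin 3' minus 5' signal, a measure of RNA integrity and amplification, was 2.09 to 2.38 with EPZ004777 and 2.37 to 2.50 with MI-2-2. The part of that shift in the results was not tested.

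Of 13921 genes tested with limma, 2255 (16.2%) differed between the compounds at a Benjamini-Hochberg adjusted p under 0.05, here called genes. EPZ004777 gave the higher signal for 1200 of them (8.62% of genes tested) and the lower signal for 1055 (7.58%). Most differences were small, with a median size of 0.413 on the log2 scale among called genes. At least a 2-fold difference was reached by 198 genes (1.42%), of which 161 (1.16%) were higher and 37 (0.266%) lower with EPZ004777. The 15 genes past 4-fold were more evenly split, 8 higher and 7 lower. The 3 EPZ004777 arrays and the 3 MI-2-2 arrays did not overlap for 4826 genes (34.7%), and 2247 genes (16.1%) were both called and not overlapping. Without EPZ004777 replicate 2, 1475 genes were called, 874 higher and 601 lower.

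**Figure D1:**
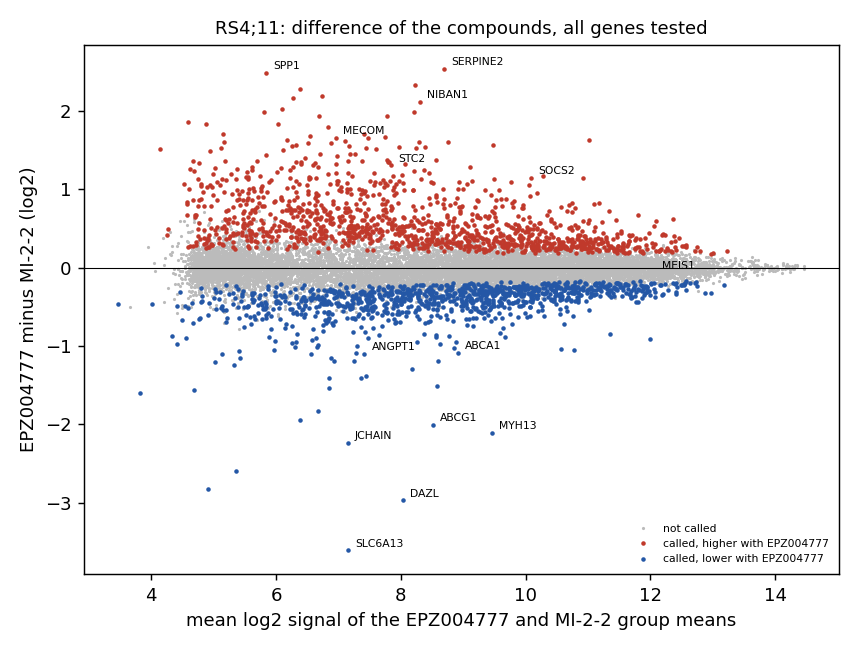
Difference between the compounds in RS4;11 for the 13921 genes tested. The x axis is the mean of the group mean log2 signals and the y axis is the log2 difference, EPZ004777 minus MI-2-2. Each point is a gene, red where called higher with EPZ004777 and blue where called lower. The 161 genes at least 2-fold higher outnumber the 37 at least 2-fold lower, while the 2 largest differences, of SLC6A13 and DAZL, are negative.

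Against DMSO, 923 genes (6.63%) were called with EPZ004777, of which 638 rose (4.58%) and 285 fell (2.05%), and 1752 genes (12.6%) were called with MI-2-2, of which 823 rose (5.91%) and 929 fell (6.67%). These comparisons share the DMSO arrays, so their values are given side by side and not as evidence for one another. The EPZ004777 count was 586 without EPZ004777 replicate 2, 555 without DMSO replicate 2 and 355 without DMSO replicate 3. Its falls numbered 129, 108 and 56 in these fits. The MI-2-2 count was 888 without DMSO replicate 2 and 753 without DMSO replicate 3, and its falls were 598 without MI-2-2 replicate 1. For 1389 of the 2255 genes that differed between the compounds (61.6%) the DMSO mean lay nearer to the EPZ004777 mean than to the MI-2-2 mean. The DMSO mean lay between the compounds for 1471 of the genes, above both for 363 and below both for 421.

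The 12 genes furthest above MI-2-2 in the EPZ004777 arrays were led by SERPINE2 and SPP1. Values are log2 signals in replicates 1, 2 and 3 unless stated, and † denotes a probe set whose name warns of binding to more than 1 transcript. SERPINE2, a secreted inhibitor of serine proteases, read 9.92, 10.03 and 9.95 with EPZ004777, 7.50, 7.42 and 7.37 with MI-2-2, 8.30, 8.42 and 8.32 with the combination, and 9.31 and 9.26 with DMSO. The compounds lay on opposite sides of DMSO, with the combination between MI-2-2 and DMSO. The difference was 2.54 ± 0.06 (standard error), or 5.80-fold, with a limma adjusted p of 5.61e-09, and against DMSO SERPINE2 rose by 0.68 with EPZ004777 and fell by 1.85 with MI-2-2.

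SPP1†, the secreted phosphoprotein osteopontin, showed another pattern. It read 7.07, 7.01 and 7.15 with EPZ004777, 4.50, 4.66 and 4.62 with MI-2-2, 6.53, 6.72 and 6.54 with the combination, and 4.05 and 4.54 with DMSO. MI-2-2 overlapped DMSO, and EPZ004777 stood above every other array. SPP1 lay above percentile 40 on only 3 of the 6 arrays compared, so its MI-2-2 and DMSO signals are close to the bottom of the scale, where a change is poorly measured. The difference was 2.48 ± 0.11, with 2.78 for EPZ004777 minus DMSO and 0.30 for MI-2-2 minus DMSO (limma adjusted p = 0.161 for the last). CA2, a carbonic anhydrase, followed the same pattern, with 7.57, 7.44 and 7.58 with EPZ004777, 4.94, 5.49 and 5.34 with MI-2-2, and 5.03 and 5.23 with DMSO. Its difference was 2.27 ± 0.14, and the MI-2-2 arrays spanned both DMSO arrays. LTBP1†, which anchors latent TGF-beta in the matrix, differed by 2.16 ± 0.17, with 2.18 for EPZ004777 minus DMSO and 0.02 for MI-2-2 minus DMSO (limma adjusted p = 0.971 for the last).

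CTSG, the neutrophil granule protease cathepsin G, read 9.34, 9.26 and 9.02 with EPZ004777, 7.22, 7.21 and 7.22 with MI-2-2, 7.01, 7.00 and 7.25 with the combination, and 8.77 and 8.71 with DMSO. The MI-2-2 and combination arrays shared a low range, and EPZ004777 stood just above DMSO. The difference was 1.99 ± 0.09, and CTSG rose by 0.46 with EPZ004777 and fell by 1.53 with MI-2-2 relative to DMSO. TMEM45A, a transmembrane protein, FSTL1, a secreted follistatin-like glycoprotein, NIBAN1†, a protein induced by cell stress, CATSPERZ, a subunit of the sperm calcium channel, DAB2, a clathrin adaptor, and AK4, a mitochondrial adenylate kinase, also lay above DMSO with EPZ004777 and below it with MI-2-2, each called in both directions. Their differences between the compounds ran from 1.93 (AK4) to 2.33 (TMEM45A). LHFPL2, a tetraspan membrane protein, differed by 1.98 ± 0.15, rose by 1.44 with EPZ004777 and had 0.54 less signal with MI-2-2 than with DMSO, which was not called (limma adjusted p = 0.0657).

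**Figure D2:**
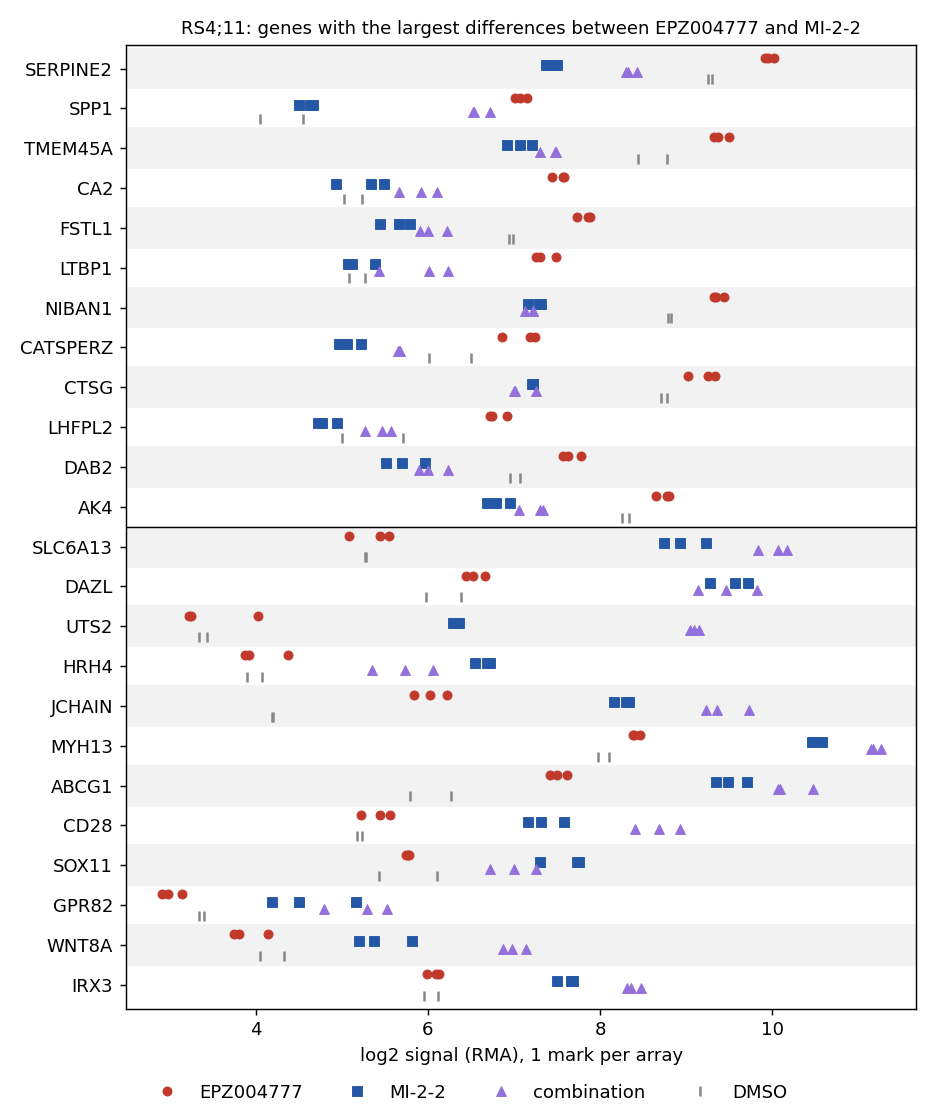
Log2 signal on every RS4;11 array for the 12 genes with the largest positive and the 12 with the largest negative differences. Each mark is 1 array (3 EPZ004777, 3 MI-2-2, 3 combination, 2 DMSO), and the x axis is the log2 signal. Red and blue marks do not overlap for any of the 24 genes, which were chosen for that. In SERPINE2 the compounds lie on opposite sides of DMSO, whereas SPP1 differs from DMSO mainly with EPZ004777 and SLC6A13 mainly with MI-2-2.

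The genes furthest below MI-2-2 were mostly genes that rose with MI-2-2 and stayed near DMSO with EPZ004777. SLC6A13†, a transporter of the transmitter GABA, read 5.44, 5.55 and 5.08 with EPZ004777, 9.23, 8.92 and 8.74 with MI-2-2, 10.18, 10.07 and 9.84 with the combination, and 5.27 and 5.28 with DMSO. EPZ004777 spanned the DMSO level, and the combination stood above MI-2-2 alone. The difference of -3.61 ± 0.14 was the largest of all genes tested, a 12.2-fold lower signal with EPZ004777 (limma adjusted p = 3.06e-07). DAZL, a germ cell RNA-binding protein, read 6.45, 6.67 and 6.53 with EPZ004777, 9.71, 9.57 and 9.27 with MI-2-2, 9.47, 9.83 and 9.13 with the combination, and 6.38 and 5.97 with DMSO. Its difference was -2.97 ± 0.17, and here MI-2-2 and the combination overlapped.

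UTS2†, the vasoactive peptide urotensin 2, read 4.03, 3.22 and 3.25 with EPZ004777, 6.29, 6.36 and 6.32 with MI-2-2, 9.09, 9.15 and 9.05 with the combination, and 3.34 and 3.44 with DMSO. The combination arrays were far above those of MI-2-2 alone, while EPZ004777 alone overlapped DMSO. The difference was -2.82 ± 0.17. HRH4, a histamine receptor, CD28, the costimulatory receptor of T cells, SOX11†, a transcription factor of neural development, GPR82, an orphan receptor, WNT8A, a WNT ligand, and IRX3, a homeobox factor, also rose with MI-2-2, by 1.25 (GPR82) to 2.66 (HRH4), and were not called with EPZ004777 against DMSO. Their differences between the compounds ran from -2.60 (HRH4) to -1.54 (IRX3). For SOX11 the probe set used gave -1.83, and other probe sets bright enough to pass the filter gave -1.39 and -0.32. UTS2, HRH4 and WNT8A lay above percentile 40 on only 3 of the 6 arrays compared, so that their EPZ004777 signals are close to the bottom of the scale. GPR82 was dimmer still, with 2.91, 2.98 and 3.15 with EPZ004777, 5.17, 4.19 and 4.50 with MI-2-2, and 3.40 and 3.34 with DMSO, so its difference is poorly measured too.

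JCHAIN, MYH13 and ABCG1† rose with either compound and more with MI-2-2. JCHAIN, the chain that joins IgM and IgA polymers, read 6.03, 6.22 and 5.84 with EPZ004777, 8.34, 8.16 and 8.30 with MI-2-2, 9.36, 9.73 and 9.22 with the combination, and 4.20 and 4.19 with DMSO. The 4 groups formed separate steps with DMSO lowest and the combination highest. The difference between the compounds was -2.24 ± 0.13, with 1.83 for EPZ004777 and 4.07 for MI-2-2 against DMSO. MYH13, a skeletal muscle myosin, differed by -2.11 ± 0.06, with rises of 0.37 and 2.48 over DMSO for EPZ004777 and MI-2-2.

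The clearest gene list was that of the integrated stress response, the program in which kinases that sense amino acid shortage or protein misfolding raise translation of ATF4, which then drives stress genes. Of its 16 regulators, 12 (75.0%) were higher with EPZ004777 than with MI-2-2, none was lower (0 at an unadjusted p under 0.05 in limma), and the list's median difference was 0.585, against 16.2% called and a median of -0.014 over all genes tested. Against DMSO, the same list had 0 rises and 1 fall with EPZ004777, that of CEBPB, and 0 rises and 12 falls with MI-2-2, with 0 rises at an unadjusted p under 0.05 for either compound. For STC2, a secreted glycoprotein induced by stress, the signals were 8.69, 8.57 and 8.22 with EPZ004777, 7.30, 7.29 and 6.98 with MI-2-2, 6.82, 6.86 and 6.94 with the combination, and 8.61 and 8.63 with DMSO. EPZ004777 spanned DMSO, and the other groups lay lower. The difference was 1.30 ± 0.12 (limma adjusted p = 3.85e-05), with -0.12 for EPZ004777 and -1.43 for MI-2-2 against DMSO. Another STC2 probe set, dimmer but bright enough to pass the filter, gave a difference between the compounds of 0.38.

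TRIB3, a pseudokinase that damps the response, read 8.79, 8.59 and 8.24 with EPZ004777, 7.58, 7.64 and 7.43 with MI-2-2, 7.07, 6.79 and 6.66 with the combination, and 8.81 and 8.75 with DMSO. CHAC1, which degrades glutathione, read 8.15, 7.89 and 7.71 with EPZ004777, 6.74, 6.87 and 7.22 with MI-2-2, 6.18, 5.94 and 6.64 with the combination, and 8.37 and 8.27 with DMSO. In both genes no EPZ004777 array overlapped an MI-2-2 array, and the combination was lowest. The differences were 0.99 ± 0.14 for TRIB3, 0.97 ± 0.18 for CHAC1 and 1.16 ± 0.16 for JDP2, a repressor that pairs with ATF factors. The other called members, named here after their values were seen, were SESN2 (0.93), ATF3 (0.75), DDIT3 (0.64), ATF5 (0.60), CEBPG (0.57), CEBPB (0.47), PPP1R15A (0.40) and GADD45A (0.22). ATF4 itself, which is controlled largely at translation, differed by 0.14 and was not called, nor were NUPR1, DDIT4 and VLDLR.

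**Figure D3:**
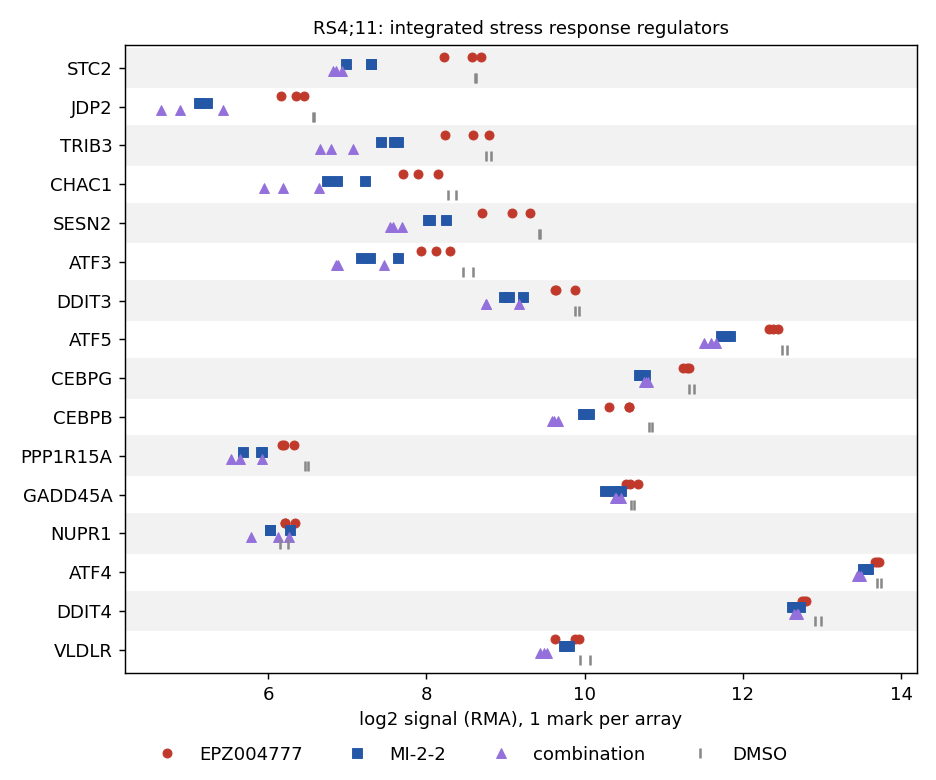
Log2 signal on every RS4;11 array for the 16 regulators of the integrated stress response, ordered by the difference between the compounds. Each mark is 1 array and the x axis is the log2 signal. From STC2 to GADD45A the red EPZ004777 marks lie right of the blue MI-2-2 marks, and for most of these genes they lie close to DMSO.

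ATF4 and its C/EBP partners bind a composite element with the letters TGATGNAA (TTNCATCA on the other strand). In the 250 bases before the RefSeq start sites (GRCh38.p14) it was present in 1061 of 27305 genes (3.89%) and in 280 of the 11164 tested genes with a promoter entry (2.51%). It was found for 4 of 14 stress regulators with an entry (ATF3, CEBPG, CHAC1 and JDP2), 3 of 10 genes of amino acid and one-carbon synthesis (ASNS, GOT1 and MTHFD1L), 1 of 9 amino acid transporters (SLC1A5) and 3 of 16 aminoacyl-tRNA synthetases (AARS1, GARS1 and IARS1). A match is a description of the letters and no proof of binding. The lines show the element, in capitals, in genes that were called and in ASNS, which was not. They lie at chr1:212565190-212565249 (plus strand) for ATF3, chr15:40953236-40953295 (plus strand) for CHAC1, chr10:99430789-99430848 (minus strand) for GOT1 and chr7:97872443-97872502 (minus strand) for ASNS.
ATF3: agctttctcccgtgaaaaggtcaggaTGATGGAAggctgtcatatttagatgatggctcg
CHAC1: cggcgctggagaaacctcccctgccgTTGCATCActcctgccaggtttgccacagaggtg
GOT1: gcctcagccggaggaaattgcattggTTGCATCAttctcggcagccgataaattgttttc
ASNS: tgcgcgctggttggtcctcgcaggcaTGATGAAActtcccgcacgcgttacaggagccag

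Genes that supply amino acids and charge transfer RNA went the same way with smaller differences. In amino acid and one-carbon synthesis, 6 of 14 genes tested were higher with EPZ004777 and none lower (0 at an unadjusted p under 0.05 in limma). Of all genes, 8.62% were higher and 7.58% lower. Against DMSO there were 0 calls for EPZ004777, with 2 lower at an unadjusted p under 0.05, and 8 falls for MI-2-2. GOT1, the cytosolic aspartate aminotransferase shown above, read 11.15, 11.04 and 11.03 with EPZ004777, 10.55, 10.67 and 10.47 with MI-2-2, and 11.14 and 11.25 with DMSO. EPZ004777 lay at the DMSO level and MI-2-2 below it, a difference of 0.51 ± 0.08. ALDH1L2, a mitochondrial folate enzyme, differed by 0.84 ± 0.11, PCK2, which makes phosphoenolpyruvate in mitochondria, by 0.40 ± 0.10, and PHGDH, the first enzyme of serine synthesis, by 0.38 ± 0.07. The call of PCK2 was lost without EPZ004777 replicate 1 or 2 or MI-2-2 replicate 1 or 3, at adjusted p of 0.0646 to 0.0883. ASNS, asparagine synthetase and a classic ATF4 target, had a difference of -0.13 and was not called.

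Of 9 amino acid transporters, 3 were higher with EPZ004777 and 1 lower, against 8.62% higher and 7.58% lower of all genes. SLC7A11, the cystine carrier, was higher by 0.57 ± 0.07 and its partner SLC3A2† by 0.53 ± 0.16, and SLC38A2† was higher by 0.17 ± 0.05. The calls of SLC3A2 and SLC38A2 were close to the threshold (limma adjusted p = 0.0448 and 0.0487) and were lost without most single arrays of either compound, at adjusted p up to 0.148. SLC36A1, a lysosomal exporter of amino acids, was lower by 0.62, with 7.17, 6.92 and 6.92 with EPZ004777, 7.56, 7.65 and 7.66 with MI-2-2, and 6.98 and 7.30 with DMSO. Of 17 cytosolic aminoacyl-tRNA synthetases, 5 were higher (29.4%, against 8.62% of all genes) and none lower (2 at an unadjusted p under 0.05 in limma). The 5 were WARS1 (0.42 ± 0.08), SARS1 (0.38 ± 0.07), GARS1† (0.30 ± 0.09), CARS1 (0.28 ± 0.07) and, named after its value was seen, TARS1 (0.24). The calls of GARS1 and CARS1 were lost without EPZ004777 replicate 1 or 2 or MI-2-2 replicate 1 or 3, at adjusted p of 0.0838 to 0.12. The median differences of these lists were 0.180 for synthesis, 0.179 for transporters and 0.115 for synthetases.

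Chaperones of the endoplasmic reticulum split. HERPUD1†, which serves degradation of misfolded proteins, was higher by 0.61 ± 0.07, with 11.88, 11.73 and 11.64 with EPZ004777, 11.12, 11.14 and 11.16 with MI-2-2, and 11.97 and 11.98 with DMSO. SDF2L1†, a partner of the chaperone BiP, was lower by 0.64, with 7.23, 7.08 and 6.89 with EPZ004777, 7.77, 7.74 and 7.62 with MI-2-2, and 7.13 and 7.30 with DMSO. In both genes EPZ004777 stayed near DMSO and MI-2-2 moved, down for HERPUD1 and up for SDF2L1. In all, 3 of 16 members were higher and 3 lower, against 8.62% higher and 7.58% lower of all genes. Among the called members were DNAJB9† (0.31) and PDIA4 (-0.20), and the median difference was 0.012. The call of DNAJB9 was lost without EPZ004777 replicate 2 or 3 or MI-2-2 replicate 1 or 2, and that of PDIA4 without EPZ004777 replicate 2 or MI-2-2 replicate 1, at adjusted p of 0.056 to 0.079.

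Targets of the liver X receptors, which sense oxysterols and drive cholesterol export, included cholesterol exporters with large differences. ABCG1†, a cholesterol exporter, read 7.42, 7.61 and 7.50 with EPZ004777, 9.34, 9.49 and 9.70 with MI-2-2, 10.07, 10.48 and 10.09 with the combination, and 5.79 and 6.26 with DMSO. ABCA1†, the exporter to apolipoprotein A-I, read 8.23, 8.32 and 8.58 with EPZ004777, 9.40, 9.34 and 9.64 with MI-2-2, 9.69, 9.91 and 9.78 with the combination, and 6.81 and 6.66 with DMSO. Both genes rose with either compound and stood higher with MI-2-2. The differences were -2.00 ± 0.14 for ABCG1 and -1.09 ± 0.11 for ABCA1, with 1.48 and 1.64 for EPZ004777 minus DMSO and 3.48 and 2.73 for MI-2-2 minus DMSO. SREBF1, the lipogenic factor, was lower by 0.42 and, named after its value was seen, MYLIP, a ubiquitin ligase, by 0.28, while APOC1†, an apolipoprotein, was higher by 0.38 ± 0.11. These are the 5 called among 10 members tested (50.0%, against 16.2% of all genes), and the median difference was -0.148. The call of APOC1 was lost without EPZ004777 replicate 2 or 3 or MI-2-2 replicate 2 or 3, at adjusted p of 0.0847 to 0.107.

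The element of these receptors, a direct repeat of AGGTCA with 4 bases between its copies, searched on both strands, was in none of 11 promoters of the list and in 5 of all 27305, which says only that these letters are not in that window. Of 17 sterol synthesis and uptake genes, only SREBF2, the master factor of sterol synthesis, was called (5.88%, against 16.2% of all genes). It read 10.76, 10.70 and 10.64 with EPZ004777, 10.28, 10.50 and 10.22 with MI-2-2, and 10.66 and 10.88 with DMSO, a difference of 0.37 ± 0.08 with MI-2-2 below DMSO. Without MI-2-2 replicate 1 or 3 it was no longer called (limma adjusted p = 0.0506 and 0.0533). Its promoter was the single match among 16 of the list (43 of 27305, 0.157%) for the sterol regulatory element, searched on both strands, at chr22:41832945-41833006 on the plus strand (GRCh38.p14, RefSeq), with the matching bases in capitals.
SREBF2: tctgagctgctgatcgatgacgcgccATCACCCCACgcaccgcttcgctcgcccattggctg

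Of 18 lysosome genes, ATP6V0D1, a subunit of the proton pump, was lower by 0.37 and no other member was called (5.56%, against 16.2% of all genes). At an unadjusted p under 0.05 in limma, 4 were lower, that gene included. Genes of B cell differentiation were called in both directions, 6 of 32 higher and 4 lower with EPZ004777, with a median of 0.052. Of all genes, 8.62% were higher and 7.58% lower. BACH2†, a repressor that restrains plasma cell fate, read 9.84, 9.85 and 9.83 with EPZ004777, 9.07, 9.08 and 9.27 with MI-2-2, 9.98, 9.97 and 9.83 with the combination, and 9.12 and 9.06 with DMSO. It rose with EPZ004777 and had the DMSO level with MI-2-2, a difference of 0.70 ± 0.07. BLNK†, the adaptor of the B cell receptor, differed by 0.60 ± 0.07. It rose by 0.83 over DMSO with EPZ004777, and the MI-2-2 arrays, all above DMSO, had a difference of 0.23 that was not called (limma adjusted p = 0.095).

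MS4A1, which encodes CD20, read 4.95, 4.88 and 4.84 with EPZ004777, 5.46, 5.78 and 5.37 with MI-2-2, 9.03, 8.73 and 9.10 with the combination, and 3.92 and 4.47 with DMSO. MS4A1 rose over DMSO with either compound, and the combination arrays stood far above both. Its DMSO and EPZ004777 signals were near the bottom of the scale, where a change is poorly measured. The difference between the compounds was -0.65 ± 0.15 (limma adjusted p = 0.0135), and without MI-2-2 replicate 2 it was -0.53 and no longer called (adjusted p = 0.0518). Together with JCHAIN, MS4A1 was among the 4 lower members. The B-precursor markers CD79B and DNTT, named after their values were seen, were higher by 0.52 and 0.53 with EPZ004777.

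Myeloid genes were called in either direction, 4 of 17 higher and 4 lower, against 8.62% higher and 7.58% lower of all genes. Their median was 0.038. Beside CTSG, which was higher with EPZ004777, the integrin ITGAM† was lower by 0.97, the costimulatory ligand CD86 by 0.95 and the M-CSF receptor CSF1R by 0.71. CD86 read 5.91, 5.54 and 6.08 with EPZ004777, 6.95, 6.57 and 6.84 with MI-2-2, 8.83, 8.85 and 8.96 with the combination, and 5.17 and 4.92 with DMSO. The groups did not overlap, and the combination was highest. MPO, the neutrophil peroxidase and named after its value was seen, was higher by 0.67, between means of 5.04 with EPZ004777 and 4.37 with MI-2-2 that are near the bottom of the scale. Of 16 genes of MHC class II presentation, 3 were called (18.8%), a share near the 16.2% of all genes. The peptide loaders HLA-DMB and HLA-DMA† were lower by 0.46 and 0.27, and CIITA, the coactivator of class II genes, was higher by 0.28 ± 0.08. CIITA lost its call without EPZ004777 replicate 1 or 2 or any MI-2-2 array, at adjusted p of 0.0634 to 0.14. None of the 8 tested markers of other cell types was called in limma, and 0 had an unadjusted p under 0.05.

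Among KMT2A fusion targets, 8 of 18 genes tested were higher with EPZ004777 and 1 lower, against 8.62% higher and 7.58% lower of all genes, with a median difference of 0.101. MEIS1, the homeobox cofactor that is a hallmark target, did not pass the test, with 12.05, 12.03 and 12.03 with EPZ004777, 12.10, 12.09 and 12.11 with MI-2-2, 12.18, 12.18 and 12.21 with the combination, and 11.89 and 11.89 with DMSO. Its difference was -0.06 ± 0.05 (limma adjusted p = 0.449), and MEIS1 was high in all groups. The HOXA genes of the list have no probe set annotated to 1 symbol alone and were not analysed here. CCNA1, a cyclin of meiosis and leukaemia, read 7.09, 6.69 and 6.56 with EPZ004777, 5.76, 5.75 and 5.75 with MI-2-2, 7.89, 8.13 and 8.28 with the combination, and 4.83 and 5.32 with DMSO. It rose with either compound, more so with EPZ004777, a difference of 1.03 ± 0.16.

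SATB1†, a chromatin organiser, read 9.62, 9.37 and 9.50 with EPZ004777, 8.32, 8.52 and 8.63 with MI-2-2, and averaged 8.97 ± 0.04 with DMSO (SD, n = 2). The compounds lay on opposite sides of DMSO, each called, and differed by 1.00 ± 0.09. MYC†, a transcription factor of cell growth, was higher by 0.52 ± 0.10 and FLT3, a receptor kinase of progenitors, by 0.47 ± 0.07. FLT3 fell by 0.40 with MI-2-2 and differed by 0.07 from DMSO with EPZ004777, where it was not called. The 1 lower member, named after its value was seen, was the homeobox factor PBX3 (-0.27).

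Of 12 stem and progenitor genes tested, 4 were higher and 1 lower, against 8.62% higher and 7.58% lower of all genes. BAALC†, a marker of poor-risk leukaemia, read 6.04, 5.86 and 6.08 with EPZ004777, 4.05, 4.45 and 4.38 with MI-2-2, and 5.30 and 4.89 with DMSO. Its MI-2-2 signals are near the bottom of the scale, where a change is poorly measured. MECOM, which encodes the factor EVI1, read 7.81, 7.80 and 7.74 with EPZ004777, 5.92, 6.19 and 6.29 with MI-2-2, 7.13, 7.13 and 7.00 with the combination, and 6.45 and 6.96 with DMSO. Both genes rose with EPZ004777 and fell with MI-2-2 relative to DMSO, for differences of 1.70 ± 0.15 and 1.65 ± 0.13. ANGPT1, the ligand of the receptor TIE2, went the other way, with 6.88, 6.97 and 6.76 with EPZ004777, 7.94, 7.99 and 7.96 with MI-2-2, 7.69, 7.62 and 7.50 with the combination, and 8.28 and 8.40 with DMSO. It fell with either compound, more with EPZ004777, a difference of -1.10 ± 0.07. ERG†, an ETS factor, was higher by 0.38 ± 0.09, and LMO2, also in the list of fusion targets and named after its value was seen, by 0.37.

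The genes for the targeted proteins did not pass the test, DOT1L with a difference of -0.27 ± 0.12 (limma adjusted p = 0.162) and MEN1†, which encodes menin, with -0.03 ± 0.14 (limma adjusted p = 0.913). Compounds that block a protein need not change its messenger RNA, so these values check nothing about the labels. Of 10 genes of the DOT1L and super elongation complexes, MLLT10 was called (0.22 ± 0.06), and of 10 of the menin and KMT2 complexes and their effectors, PSIP1, the chromatin reader LEDGF (0.23 ± 0.05), and CDKN1B, the cell cycle inhibitor p27 (0.21 ± 0.05). With so few members, 1 and 2 calls are near the share of 16.2% of all genes. PSIP1 lost its call without EPZ004777 replicate 2 (adjusted p = 0.061). MLLT10 lost it without EPZ004777 replicate 1 or 2 or any MI-2-2 array (0.0606 to 0.108), and CDKN1B without EPZ004777 replicate 1 or 2 or MI-2-2 replicate 1 or 2 (0.0643 to 0.0944). DOT1L was called without MI-2-2 replicate 3 (-0.39, adjusted p = 0.0409).

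Of 18 genes of cytokine and growth factor signals and their feedback, 5 were higher with EPZ004777 and 1 lower, against 8.62% higher and 7.58% lower of all genes, with a median of 0.064. SOCS2, an inhibitor induced by STAT5, read 10.70, 10.69 and 10.57 with EPZ004777, 9.30, 9.71 and 9.52 with MI-2-2, 8.31, 8.41 and 8.35 with the combination, and 11.16 and 11.16 with DMSO. It fell with either compound, more with MI-2-2, and the combination was lowest, for a difference of 1.15 ± 0.09. DUSP6†, a phosphatase of ERK, read 10.05, 10.13 and 9.98 with EPZ004777, 8.95, 8.95 and 8.86 with MI-2-2, 9.54, 9.60 and 9.59 with the combination, and 9.18 and 8.88 with DMSO. It rose with EPZ004777 and kept to the DMSO range or just under it with MI-2-2, for a difference of 1.13 ± 0.08. PIM1, a kinase induced by STAT factors, was higher by 0.85 ± 0.09 and SPRY1, an inhibitor of receptor kinases, by 0.52 ± 0.11. Another SPRY1 probe set, dimmer but bright enough to pass the filter, gave 0.13.

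None of 27 cell cycle genes was called in limma, with 4 at an unadjusted p under 0.05. Of 14 genes of MYC and ribosome biogenesis only MYC itself was called (7.14%, against 16.2% of all genes). Of 17 interferon response genes, 7 were lower with EPZ004777 and 1 higher, against 7.58% lower and 8.62% higher of all genes. Their median was -0.110, and 8 of the 17 had a difference above 0. OAS1, an antiviral sensor of double-stranded RNA, read 7.46, 7.45 and 7.09 with EPZ004777, 7.88, 8.01 and 7.84 with MI-2-2, and 7.43 and 7.39 with DMSO. MX2, an antiviral GTPase, read 7.91, 7.83 and 7.83 with EPZ004777, 8.40, 8.40 and 8.29 with MI-2-2, and averaged 7.94 ± 0.09 with DMSO (SD, n = 2). In both genes EPZ004777 was at the DMSO level and MI-2-2 above it, for differences of -0.58 ± 0.10 and -0.51 ± 0.07. ISG15†, a ubiquitin-like modifier, was lower by 0.43, and IFITM1†, a membrane protein that blocks viral entry, was higher by 0.56 ± 0.07. Of 15 p53 targets and apoptosis genes, 5 were lower and 1 higher, against 7.58% lower and 8.62% higher of all genes. The median of this list was 0.004, and 8 of the 15 had a difference above 0. SESN1† was lower by 0.35, ZMAT3 by 0.34 and BAX† by 0.32, and FAS†, the death receptor, was higher by 0.44 ± 0.08. ZMAT3 lost its call without EPZ004777 replicate 2 (adjusted p = 0.0516), and BAX without EPZ004777 replicate 2 or 3 or MI-2-2 replicate 1 or 2 (0.0675 to 0.0989).

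**Figure D4:**
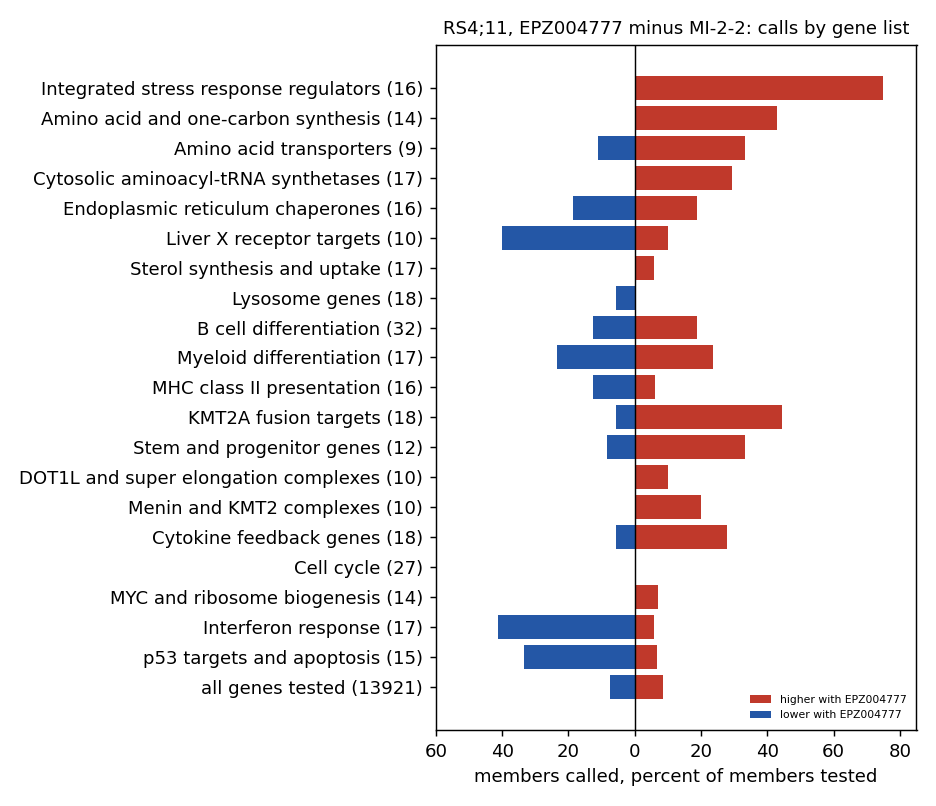
Percent of the members tested in each gene list (number tested in brackets) that were called higher with EPZ004777 (red, to the right) or lower (blue, to the left) than with MI-2-2 in RS4;11. The bottom bar gives all 13921 genes. The integrated stress response regulators have the longest bar (75.0% higher), and none of the cell cycle genes was called.

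The same difference was set against that in other B-precursor lines given the same doses for 6 days, REH, which has no KMT2A fusion (3 EPZ004777 and 3 MI-2-2 arrays), and SEM, which carries KMT2A-AFF1 (3 EPZ004777 and 2 MI-2-2 arrays). In a limma fit of 32 arrays and 14943 genes, the difference between the compounds differed between RS4;11 and REH for 1123 genes (7.52%), being higher in RS4;11 for 573 (3.83%) and lower for 550 (3.68%). It differed between RS4;11 and SEM for 1529 genes (10.2%), higher in RS4;11 for 1034 (6.92%) and lower for 495 (3.31%). The SEM count was 922 without SEM MI-2-2 replicate 3, and the 550 were 365 without REH EPZ004777 replicate 2. Within each line, EPZ004777 was higher than MI-2-2 for 988 genes in RS4;11 (6.61%), 605 in REH (4.05%) and 1188 in SEM (7.95%), and lower for 678 in RS4;11 (4.54%), 263 in REH (1.76%) and 1795 in SEM (12%). In all, that was 1666 genes in RS4;11 (11.1%), 868 in REH (5.81%) and 2983 in SEM (20%). The actin 3' minus 5' signal in SEM was 2.32 to 2.39 with EPZ004777 and 1.83 to 1.89 with MI-2-2, a shift opposite to that in RS4;11, and its part in the tests was not tested.

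Of the 24 leading genes, GPR82 was left out of that fit, where another of its probe sets had the highest mean and was dim. The genes were chosen for their difference in RS4;11, whose arrays enter these tests, so the counts describe them and favour RS4;11. All 23 differed from REH and 20 differed from SEM, the exceptions being FSTL1, LHFPL2 and JCHAIN. The median size of their differences was 2.12 in RS4;11, against 0.156 in REH and 0.286 in SEM. JCHAIN had a difference of -2.24 ± 0.12 in RS4;11, -2.50 ± 0.13 in SEM and -0.61 ± 0.12 in REH, where its probe set was dim on every array.

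FSTL1 likewise had differences of 2.19 ± 0.12 in RS4;11 and 1.68 ± 0.13 in SEM, and LHFPL2 had 1.98 ± 0.12 in RS4;11 and 1.55 ± 0.14 in SEM. Others changed sign. SPP1† was higher with EPZ004777 in RS4;11 (2.48 ± 0.14) and in REH (1.21 ± 0.14) and lower in SEM (-1.18 ± 0.16), with means in SEM of 7.58 with EPZ004777 and 8.77 with MI-2-2. TMEM45A was lower in SEM (-0.70 ± 0.13) and in REH (-0.41 ± 0.11). CTSG was lower in REH (-0.97 ± 0.13), and IRX3 was higher in SEM (0.73 ± 0.14). Each was called with a limma adjusted p under 0.05 in the line named. In REH, TMEM45A was near the bottom of the scale, with means of 4.43 with EPZ004777 and 4.84 with MI-2-2. It exceeded the filter's percentile on only 2 of the 6 REH arrays compared, so its change of sign there is poorly measured.

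MYH13 exceeded the filter's percentile on every array compared and had called differences in neither REH nor SEM. Its differences were -2.11 ± 0.08 in RS4;11, 0.03 ± 0.08 in REH and 0.11 ± 0.09 in SEM. Its means with EPZ004777 and MI-2-2 were 5.51 and 5.48 in REH and 5.55 and 5.44 in SEM, against 8.41 and 10.52 in RS4;11. With signals that low in REH and SEM, a fall there would be poorly measured. SLC6A13†, DAZL, HRH4 and WNT8A were dim on every SEM array compared, so a fall or a lack of change there was not measurable. SOX11† stood at means of 11.7 with EPZ004777 and 11.6 with MI-2-2 in REH, and of 12.3 and 12.2 in SEM. In RS4;11 its means were 5.76 and 7.60, so SOX11 was brighter in REH and in SEM with either compound.

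**Figure D5:**
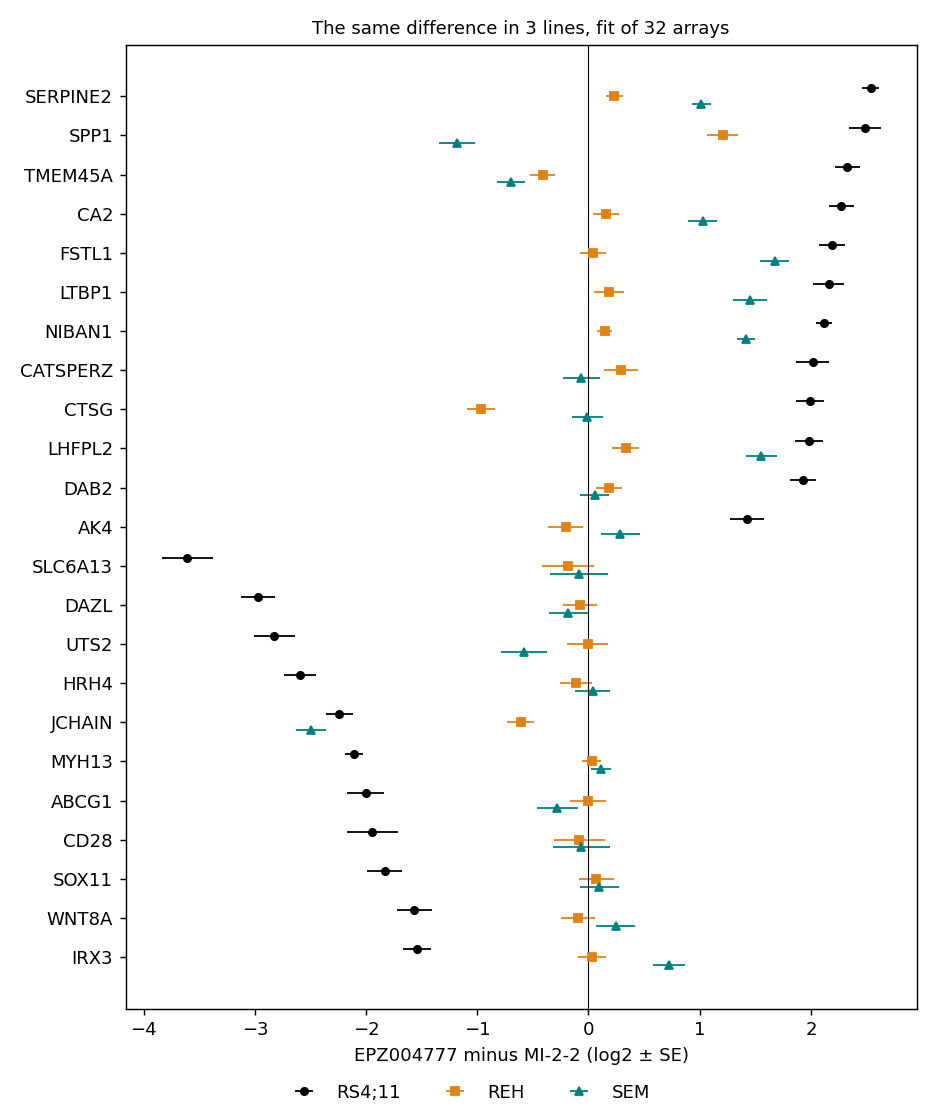
The difference between EPZ004777 and MI-2-2 in RS4;11, REH and SEM for the 23 leading genes in the fit of 32 arrays. The x axis is the log2 difference and the bars are ± 1 standard error. RS4;11 lies furthest from 0 for all genes but JCHAIN, and SPP1, TMEM45A, CTSG and IRX3 lie on opposite sides of 0 in different lines. The fit used another probe set of AK4.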

How the data were processed

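Total RNA was amplified, biotin-labelled and hybridized to Affymetrix human arrays. The authors deposited log2 values, 1 for each probe set. The submitters' processing notes name RMA, affy and R 3.0.2, and the values were used as given. Of 54675 probe sets, the 41091 with exactly 1 symbol in the platform annotation (41037 updated by Entrez identifier) were kept. Each gene was represented by its brightest probe set on average in the arrays fitted, and was tested where 2 or more arrays had it above their percentile 40. Groups follow the sample titles.

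The 11 RS4;11 arrays were fitted in limma 3.58.1 under R 4.3.3 (lmFit, contrasts.fit, eBayes), so that 4 groups share 1 estimate of the spread, and p-values were Benjamini-Hochberg adjusted over all genes tested. The 32 arrays of RS4;11, SEM and REH gave the tests between lines. The code was tested on simulated data. The members and gene lists were chosen with earlier results of these data known, so lists have counts and medians and no test. Named genes are the 12 largest differences in each direction among called genes with non-overlapping arrays, leaving aside locus and clone symbols, as many as 4 called genes per list, and MEIS1, DOT1L and MEN1. RefSeq promoters (GRCh38.p14) were searched over 250 bases before the start. Alternatives were no filter, quantile normalization, the mean of probe sets, other sets of arrays, replicate number as a block, array weights, a minimum fold of 1.5 and leaving out each array. Genes whose probe sets carry several symbols or none were not analysed here, and MOLM-13 and mouse arrays were not compared.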

Additional observations from a re-analysis of the deposited data

Results flagged for a closer look

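The difference between EPZ004777 and MI-2-2 was not the same in each B-precursor line, by a limma interaction test of the difference itself. It differed between RS4;11 and REH for 1123 genes and between RS4;11 and SEM for 1529 genes, out of 14943. Of the 23 leading genes in that fit, 23 were called against REH and 20 against SEM, and since they were chosen for a large difference in RS4;11 these values lean toward RS4;11. Each value that follows is the log2 difference, EPZ004777 minus MI-2-2, in RS4;11 minus the same in the other line.

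Of the genes higher with EPZ004777 in RS4;11, the values against REH were 2.31 for SERPINE2, 1.28 for SPP1, 2.74 for TMEM45A, 2.12 for CA2, 2.15 for FSTL1, 1.98 for LTBP1, 1.97 for NIBAN1, 1.73 for CATSPERZ, 2.95 for CTSG, 1.65 for LHFPL2, 1.75 for DAB2 and 1.63 for AK4. Against SEM, they were 1.52 for SERPINE2, 3.67 for SPP1, 3.03 for TMEM45A, 1.25 for CA2, 0.70 for LTBP1, 0.70 for NIBAN1, 2.08 for CATSPERZ, 2.00 for CTSG, 1.87 for DAB2 and 1.14 for AK4. The value of LTBP1 against SEM was no longer called without SEM MI-2-2 replicate 1 (0.47, adjusted p = 0.223), nor without SEM EPZ004777 replicate 1, RS4;11 EPZ004777 replicate 2 or RS4;11 MI-2-2 replicate 2 or 3 (adjusted p of 0.0508 to 0.0756), and LTBP1 and NIBAN1 lost theirs with the mean of probe sets (0.26 and 0.36). FSTL1, not called against SEM, was called there without RS4;11 MI-2-2 replicate 2 (0.60, adjusted p = 0.0375). With array weights, FSTL1 (0.48, limma adjusted p = 0.0326) and LHFPL2 (0.55, limma adjusted p = 0.0261) were called against SEM.

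Of the genes lower with EPZ004777 in RS4;11, the values against REH were -3.42 for SLC6A13, -2.89 for DAZL, -2.82 for UTS2, -2.48 for HRH4, -1.63 for JCHAIN, -2.14 for MYH13, -2.00 for ABCG1, -1.86 for CD28, -1.90 for SOX11, -1.47 for WNT8A and -1.57 for IRX3. Against SEM, they were -3.52 for SLC6A13, -2.79 for DAZL, -2.24 for UTS2, -2.63 for HRH4, -2.22 for MYH13, -1.72 for ABCG1, -1.88 for CD28, -1.93 for SOX11, -1.81 for WNT8A and -2.27 for IRX3. DAZL, HRH4 and WNT8A were dim on every array compared in both REH and SEM, UTS2, JCHAIN and FSTL1 in REH, and SLC6A13, ABCG1 and CATSPERZ in SEM, so a difference in those lines could not be measured well. TMEM45A and SLC6A13 exceeded the filter's percentile on only 2 of the 6 REH arrays compared, and CTSG on 1 and LHFPL2 on 3 of the 5 SEM arrays. Differences of these genes in those lines are poorly measured too. The cause of the differences between lines was not tested.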

How the results depend on the processing

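The count of 2255 genes that differed between EPZ004777 and MI-2-2 was 1891 to 2249 with no filter, quantile normalization, the mean of probe sets, only the 6 arrays compared, all 44 human arrays or the replicate block. Array weights gave 3772 (1872 higher, 1900 lower), with weights of 0.448 to 3.484 and EPZ004777 replicate 2 the heaviest, and a minimum fold of 1.5 gave 162 (131 and 31), all among the 2255. Leaving out 1 array gave 1475 to 2429 (874 to 1274 higher, 601 to 1155 lower). For EPZ004777 minus DMSO, array weights gave 2087 (1073 and 1014), the minimum fold 84 (82 and 2), the replicate block 184 lower, and leaving out 1 array 355 to 980 (299 to 661 and 56 to 319). For MI-2-2 minus DMSO, the minimum fold gave 122 (76 and 46) and leaving out 1 array 753 to 1882 (369 to 873 and 384 to 1009). Against REH, array weights gave 3615 (1594 and 2021) and leaving out 1 array 829 to 1173 (442 to 552 and 365 to 637). Against SEM, array weights gave 3159 (1990 and 1169) and leaving out 1 array 922 to 1607 (622 to 1092 and 300 to 515). The minimum fold tests a larger effect and leaving out an array fits fewer samples. For the array weights and the block the cause was not tested.

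Same-numbered EPZ004777 and MI-2-2 arrays deviated from their group means with r of -0.069, 0.055 and 0.24. Arrays of different numbers had r of -0.293 to 0.256. Deviations within a group of 3 arrays sum to 0, so these values cannot decide whether replicate numbers pair the samples. The replicate block moved the main count to 1982, of which 1902 were shared. The 24 leading genes stayed called in RS4;11 under each alternative that gave them a value. The mean of probe sets gave none for DAB2 and GPR82, nor did the fit of 6 arrays for GPR82. Of the named genes, MEN1, which was not called, changed sign (-0.19 to 0.09). The minimum fold removed the call of 49 named genes, and 20 lost it under another setting, most often SLC38A2, SLC3A2, CIITA, MLLT10, CARS1 and GARS1. With the mean of probe sets, SLC36A1, PDIA4, APOC1, SREBF2, PSIP1, ZMAT3, CIITA and MLLT10 lost their calls (adjusted p of 0.0671 to 0.695), and with all 44 human arrays HLA-DMA, ISG15, FAS, CIITA, PDIA4 and CARS1 did (0.0641 to 0.204). The number of arrays limits the precision, and signals near the bottom of the scale understate differences.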

Other observations

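Families picked by symbol, after results were seen and with no test, show groups that the lists do not hold. Of 32 subunits of mitochondrial NADH dehydrogenase, 9 were lower with EPZ004777 than with MI-2-2 in limma and 0 higher (0 at an unadjusted p under 0.05), with a median difference of -0.143, against 7.58% lower over all genes. NDUFA3 read 9.82, 9.61 and 9.80 with EPZ004777, 10.31, 10.11 and 10.08 with MI-2-2, and 10.00 and 9.76 with DMSO, a difference of -0.42 ± 0.09. Of 43 proteasome subunits and assembly factors, 10 were lower, against 7.58% over all genes, and 0 higher (0 at an unadjusted p under 0.05 in limma), among them PSME4, an activator of the proteasome, by 0.36 (limma adjusted p = 0.00156), with a median of -0.082. None of 52 cytosolic ribosomal protein genes was called in limma, and 0 had an unadjusted p under 0.05.

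Of 11 serpins, the inhibitors of serine proteases and their relatives, 5 were higher with EPZ004777 in limma, against 8.62% over all genes, and 0 lower (0 at an unadjusted p under 0.05), including SERPINE2, with a median of 0.398. SERPING1, the inhibitor of complement C1, read 6.46, 6.17 and 6.11 with EPZ004777, 5.52, 5.32 and 5.20 with MI-2-2, and 6.52 and 6.52 with DMSO, so that every MI-2-2 array was lowest. It fell by 1.17 with MI-2-2 against DMSO, and the EPZ004777 difference of -0.27 was not called (limma adjusted p = 0.191). Among 19 chemokine ligands and receptors, 5 were higher and 2 lower (36.8% called, against 16.2% of all genes), with a median of 0.027. CXCL2†, a neutrophil attractant, was higher by 1.05 ± 0.07 and CCL20, a ligand of CCR6, by 0.93 ± 0.15, while CCL1 was lower by 0.69 and CCR7, which guides cells to lymph nodes, by 0.64. SLC40A1, the iron exporter ferroportin, was higher by 1.56 ± 0.10 and rose by 1.72 over DMSO with EPZ004777, with 0.15 for MI-2-2 (limma adjusted p = 0.46 for the last). RGS16†, which damps G protein signals, was higher by 1.36 ± 0.10, while its relative RGS1† was lower by 1.19 and rose over DMSO with either compound.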
